A study of Mus musculus with 9 samples.

Results

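The Slc25 genes encode the mitochondrial carrier family, the largest group of transporters of the inner mitochondrial membrane. Every row of the deposited table whose symbol is Slc25a followed by a number was taken as a member, which gave 39 of the 13179 genes in the table. Family genes under other symbols, Ucp2, Ucp3, Mtch1 and Mtch2, are outside this rule and are given separately below. All 39 members passed the filter on low values described below. Of 48 carrier symbols grouped by role for the text, the other 9 (Slc25a2, Slc25a18, Slc25a21, Slc25a31, Slc25a41, Slc25a43, Slc25a48, Slc25a52 and Slc25a54) were not analysed here.

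Most carriers exchange one solute for another across the inner membrane, which is otherwise tight to charged molecules. Muscle depends on them for the export of ATP made by ATP synthase, the return of ADP and phosphate, the entry of fatty acids as acylcarnitines and the transfer of reducing equivalents from the cytosol. The carriers are made in the cytosol, are nuclear encoded and are placed into the membrane by a dedicated import machinery.

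RNA with poly(A) tails was measured in gastrocnemius, a calf muscle, of mice fed a high-fat diet (HFD) for 6 weeks. The p38alphaMCK-KO mice (here p38α KO) lacked the stress-activated kinase p38α, the p38alpha/gammaMCK-KO mice (here p38α/γ KO) lacked p38α and p38γ, and the control mice had no knockout by their label. MCK is the muscle creatine kinase promoter, so the deletions are directed to muscle and other cells of the tissue should keep the genes. There were 3 libraries per group, with an inferred depth of 23.8 to 27.9 M reads, and the diet was common to all 9. Whether the libraries of a group stand for different animals is not in the labels, and the p-values therefore cover only the spread between these libraries.

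The knockout labels were checked first. Mapk14, which encodes p38α, differed from control by a log2 value of -1.77 in p38α KO muscle and -1.73 in p38α/γ KO muscle. Mapk12, which encodes p38γ, differed by -2.08 in p38α/γ KO muscle and by -0.49 in p38α KO muscle. The smaller fall in p38α KO muscle was called as well (limma adjusted p = 0.006). The 12 muscle fibre markers had high values in all libraries, and their summed signal was 117580 to 169350 in p38α KO, 142740 to 149350 in p38α/γ KO and 187560 to 204080 in control libraries. By limma 1 of the 12 fell in each knockout, Acta1 in p38α KO and Actn3 in p38α/γ KO muscle, and none rose. Of all tested genes, 10.4% were called lower in p38α KO and 14.4% in p38α/γ KO muscle. The markers did not all go one way in p38α/γ KO muscle, where Myh2, Myh1 and Mb had uncalled log2 differences of 0.80, 0.65 and 0.46. Library 1 of the p38α KO group stood apart, with a correlation of 0.961 across genes with library 3 of its group, while the other pairs within groups had correlations of 0.976 to 0.993. In bulk muscle, fewer cells of a type and less RNA per cell cannot be told apart.

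The promoters of Slc25a25 and Slc25a5 are shown because these were the members that differed from control in both knockouts. Slc25a25 lies on the minus strand of chromosome 2 (chr2:32414487-32451445, GRCm38), and RefSeq lists 3 start sites for it. Slc25a5 lies on the plus strand of chromosome X (chrX:36795651-36798807, GRCm38). The 250 bases before each start site are given 5′ to 3′ in build GRCm38.p6, and capitals mark a match to the cyclic AMP response element TGACGTCA.
Slc25a25 start site 1, chr2:32451471-32451720, minus strand: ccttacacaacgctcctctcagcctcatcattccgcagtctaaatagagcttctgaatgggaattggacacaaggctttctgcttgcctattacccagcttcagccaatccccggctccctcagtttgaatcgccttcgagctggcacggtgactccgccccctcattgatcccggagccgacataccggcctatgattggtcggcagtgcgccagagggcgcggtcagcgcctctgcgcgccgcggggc
Slc25a25 start site 2, chr2:32431152-32431401, minus strand: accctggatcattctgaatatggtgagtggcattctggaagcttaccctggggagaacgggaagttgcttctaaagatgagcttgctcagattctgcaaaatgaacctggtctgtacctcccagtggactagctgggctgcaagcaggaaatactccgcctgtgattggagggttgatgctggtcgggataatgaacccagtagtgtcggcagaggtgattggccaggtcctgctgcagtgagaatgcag
Slc25a25 start site 3, chr2:32424067-32424316, minus strand: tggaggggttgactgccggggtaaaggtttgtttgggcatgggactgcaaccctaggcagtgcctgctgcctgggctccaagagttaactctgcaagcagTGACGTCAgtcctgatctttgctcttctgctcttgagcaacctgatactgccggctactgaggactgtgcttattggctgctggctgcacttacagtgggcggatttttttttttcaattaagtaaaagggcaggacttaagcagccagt
Slc25a5 start site, chrX:36795347-36795596, plus strand: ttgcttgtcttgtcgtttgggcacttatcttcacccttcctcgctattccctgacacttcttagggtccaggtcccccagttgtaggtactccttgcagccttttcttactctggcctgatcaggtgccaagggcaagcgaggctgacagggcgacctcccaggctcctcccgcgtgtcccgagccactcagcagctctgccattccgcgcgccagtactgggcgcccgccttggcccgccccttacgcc

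The response element at start site 3 of Slc25a25 began 150 bases before the start. RefSeq promoter windows of 300 bases (250 before and 50 after the start) were found for 30 of the 39 members, 39 windows in all. TGACGTCA occurred in 2 of these windows, those of Slc25a25 and Slc25a36, and in 1.79% of all 32851 windows of the same length. The E-box CACGTG, searched the same way on both strands, occurred in 7 of the 39 windows, from 6 members (Slc25a1, Slc25a13, Slc25a14, Slc25a15, Slc25a33 and Slc25a36) and in 7.15% of all windows. The AP-1 element TGANTCA occurred in 2 of the 39 windows, those of Slc25a11 and Slc25a13, and in 7.81% of all windows. The oestrogen-related receptor element TNAAGGTCA (1.28% of all windows) and the MEF2 element (3.19%) had no match in the members. A match describes letters and is no evidence of binding, and the deposited values do not tell the 3 start sites apart.

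The signal of the members was dominated by the carriers of adenine nucleotides and phosphate. Levels between genes are compared as signal per kb of merged exon. On this scale the mean control level of Slc25a4, the adenine nucleotide translocase of heart and skeletal muscle, was 1579 ± 99.3 (SD, n = 3). This was 74.95% of the summed level of the members and 9.84 times that of Slc25a3, the phosphate carrier. That ratio depends on the merged exon lengths, 2353 bases for Slc25a4 and 5550 for Slc25a3. Before division by length their control means were 3715 and 891. Slc25a3 followed at 161 per kb, Slc25a11, the oxoglutarate/malate carrier, at 102 per kb and Slc25a12, the aspartate/glutamate carrier also called aralar, at 52.0 per kb. In control muscle 11 members had a mean of at least 10 per kb, 22 lay between 1 and 10 and 6 lay under 1 (Slc25a13, Slc25a14, Slc25a35, Slc25a40, Slc25a45 and Slc25a53). The plot of levels per kb shows the groups close together for most genes and the widest gap for Slc25a25.

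**Figure D1:**
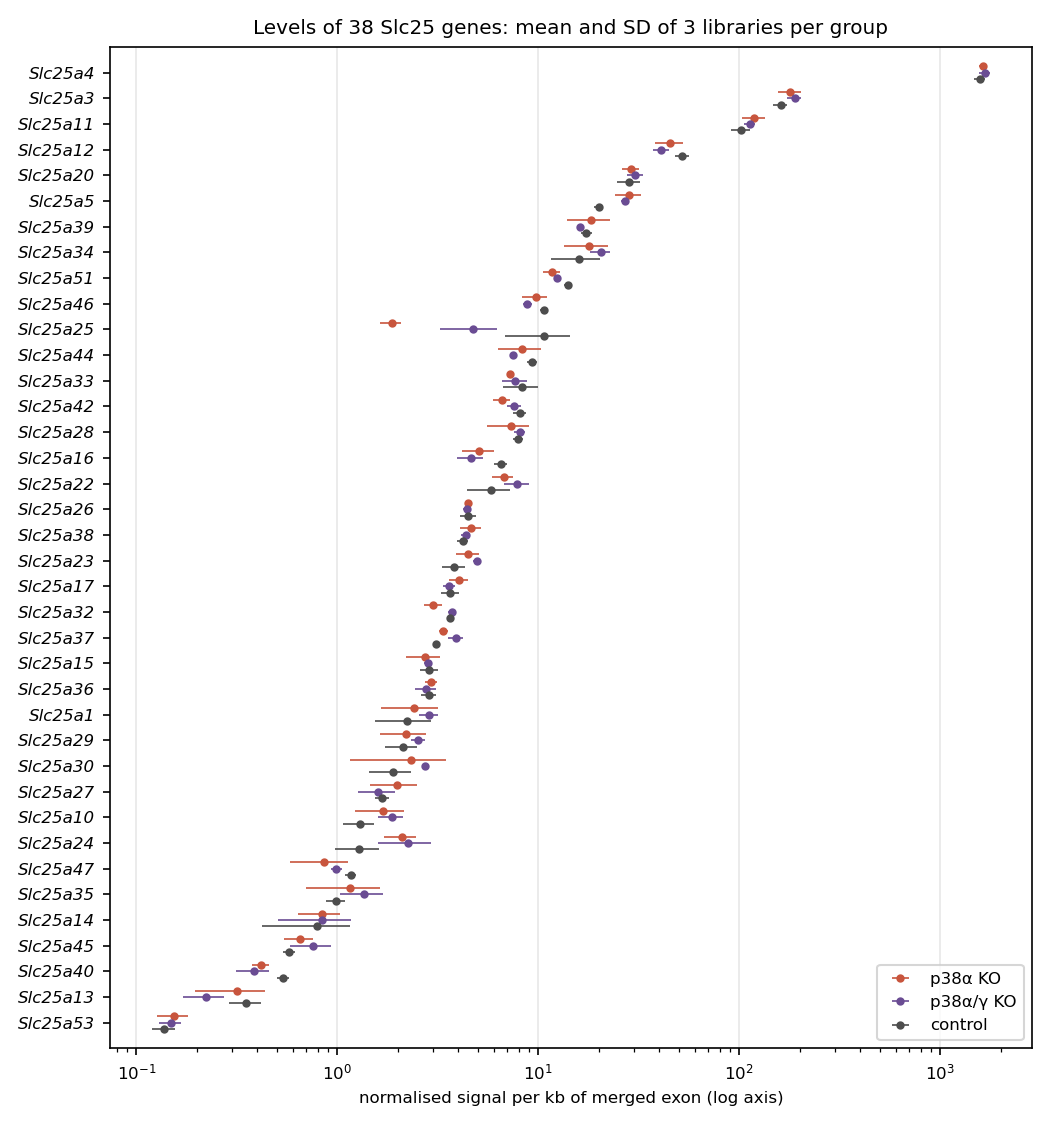
Mean signal per kb of merged exon (log axis) with SD of 3 libraries for 38 Slc25 genes, ordered by control level, in p38α KO, p38α/γ KO and control muscle. Slc25a4 is highest at 1579 per kb in control muscle, and Slc25a25 shows the widest separation between groups.

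The first comparison asks which carriers differ when muscle lacks p38α. Slc25a25 fell to 14.6 in p38α KO muscle, against 83.6 in control muscle (mean normalised signals), Slc25a5 rose to 46.8 in p38α KO, against 33.0 in control muscle, and no other member passed the test. The test was limma on log2(value + 1) over the 13137 genes that reached 1 in 3 or more libraries, with a Benjamini-Hochberg adjusted p below 0.05. By it 2 of 39 members (5.13%) were called, against 17.8% of all tested genes. The rise of Slc25a5 stands beside 7.32% of all genes called higher and the fall of Slc25a25 beside 10.4% called lower. At an unadjusted p below 0.05 there were 7 members (17.9%), against 34% of all genes. In 9 members (23.1%) the p38α KO and control libraries did not overlap, against 38.6% of all genes. Of these, 3 members (7.69%) lay above and 6 (15.4%) below all controls, against 17.6% and 21.1% of all genes. The median log2 difference was 0.05 for the members and 0.01 for all tested genes, and 94.9% of members and 83.4% of all genes lay within 0.5 of zero.

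The second comparison asks the same of muscle that lacks both kinases. Slc25a25 and Slc25a16 fell in p38α/γ KO muscle and Slc25a5, Slc25a37 and Slc25a23 rose. These were 5 of 39 members (12.8%), against 25.6% of all tested genes by limma at the same threshold. The 3 that rose stand beside 11.2% of all genes called higher and the 2 that fell beside 14.4% called lower. At an unadjusted p below 0.05 there were 11 members (28.2%), against 41% of all genes. The p38α/γ KO and control libraries did not overlap in 14 members (35.9%), against 55% of all genes. Of these, 6 members (15.4%) lay above and 8 (20.5%) below all controls, against 26.4% and 28.6% of all genes. The median log2 difference was 0.04 for the members and 0.02 for all genes, and 92.3% of members and 78.7% of all genes lay within 0.5 of zero. With the replicate number as a block, 2 members passed in the fit of 9 libraries (Slc25a25 lower and Slc25a24 higher), and 14 passed in the fit of the 6 libraries compared. These 14 were all 5 named above, Slc25a24, Slc25a10, Slc25a12, Slc25a22, Slc25a30, Slc25a35, Slc25a40, Slc25a44 and Slc25a46.

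Set directly against each other, p38α KO and p38α/γ KO muscle gave 0 called members by limma, against 0.442% of all tested genes (0.122% higher and 0.32% lower in p38α KO). At an unadjusted p below 0.05 there were 2 members, Slc25a25 and Slc25a32, against 12% of all genes. The libraries did not overlap in 3 members (Slc25a25, Slc25a32 and Slc25a37, all lower in p38α KO), or 7.69%, against 14.3% of all genes (6.73% with p38α KO above and 7.58% with p38α KO below). The median log2 difference was -0.07 for the members and -0.01 for all genes. Since both knockouts were set against the same 3 control libraries, their differences from control are given side by side and are not independent.

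**Figure D2:**
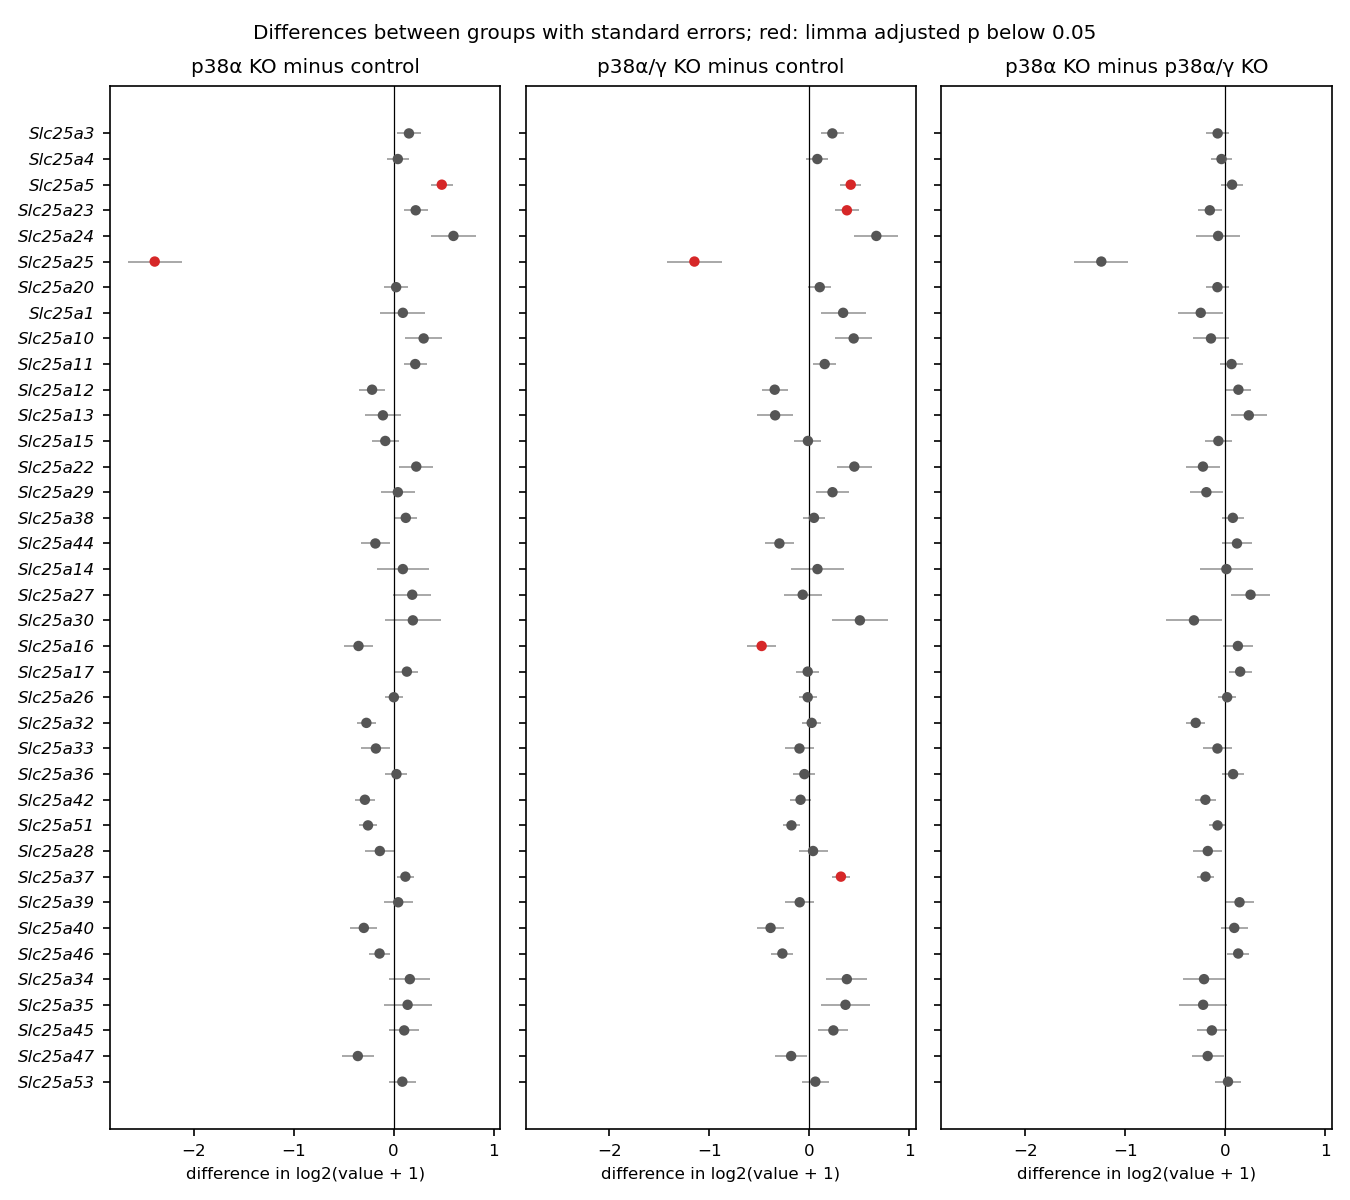
Difference in log2(value + 1) with its standard error for 38 Slc25 genes, ordered by role, for p38α KO minus control, p38α/γ KO minus control and p38α KO minus p38α/γ KO. Red points passed an adjusted p below 0.05 in limma: 2 genes in the first panel, 5 in the second and 0 in the third.

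Slc25a25 is a calcium-regulated carrier that exchanges ATP-Mg for phosphate and so changes the adenine nucleotide content of the matrix. Its normalised signal was 14.7, 16.4 and 12.9 in p38α KO libraries, 42.7, 23.7 and 44.9 in p38α/γ KO libraries and 61.5, 71.9 and 117 in control libraries. The 3 groups did not overlap, with p38α KO libraries lowest, p38α/γ KO libraries between and controls highest. In p38α KO muscle the log2 difference from control was -2.39 (SE 0.27), a 5.23-fold lower value (limma adjusted p = 0.00127), and it passed under all 23 alternatives tried. In p38α/γ KO muscle it was -1.15 (SE 0.27), a 2.22-fold lower value (limma adjusted p = 0.0173). That second call was lost without control library 3 (log2 difference -0.88, adjusted p = 0.0588) and without p38α/γ KO library 2 (-0.86, adjusted p = 0.0626).

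Between the knockouts Slc25a25 was lower in p38α KO by a log2 difference of -1.24 (95% interval -1.84 to -0.63), with a limma adjusted p of 0.11. This difference passed without p38α KO library 1 (adjusted p = 0.028) and without p38α/γ KO library 2 (adjusted p = 0.0487). With 3 libraries against 3, the two-sided exact permutation p of Slc25a25 was 0.1 in each comparison, the smallest that the design allows. Exons of Slc25a25 overlap those of Naif1 on the opposite strand over 379 of 7862 bases. Whether the counting used strand is not given in the sources used here.

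**Figure D3:**
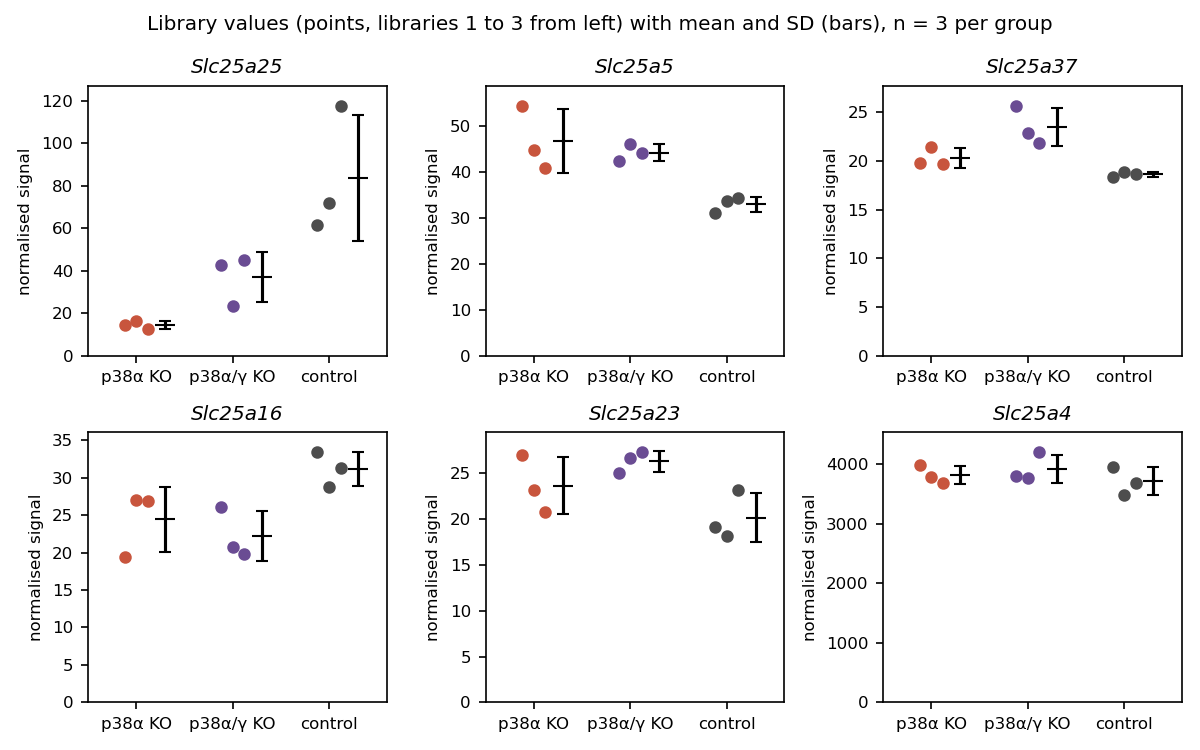
Normalised signal in each library (points) with the mean and SD of 3 libraries (bars) for the 5 members called in a comparison and for Slc25a4, in p38α KO, p38α/γ KO and control muscle. Slc25a25 runs from 12.9 to 16.4 in p38α KO libraries and from 61.5 to 117 in control libraries, while the groups of Slc25a4 overlap.

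Slc25a23 and Slc25a24 carry the same solutes and are regulated by calcium as well. Slc25a23 had a normalised signal of 27.0, 23.2 and 20.8 in p38α KO libraries, 24.99, 26.6 and 27.3 in p38α/γ KO libraries and 19.1, 18.1 and 23.2 in control libraries. All p38α/γ KO libraries lay above all controls, and the p38α KO libraries overlapped with those of both other groups. The log2 difference was 0.22 (SE 0.12, adjusted p = 0.221) in p38α KO muscle and 0.38 (SE 0.12, adjusted p = 0.0461 by limma) in p38α/γ KO muscle. The p38α/γ KO call was lost in 8 of 23 alternatives: without control library 1 or 2, p38α KO library 2 or any 1 p38α/γ KO library (adjusted p of 0.0651 to 0.141), with the block in 9 libraries (0.0834) and without the trend (0.056). Its exons overlap those of Gm17168 on the opposite strand over 168 bases. Slc25a24 averaged 7.16 ± 1.298 in p38α KO, 7.72 ± 2.26 in p38α/γ KO and 4.42 ± 1.097 in control muscle (SD, n = 3 each), with limma adjusted p of 0.0883 and 0.0503 against control. With the block in 9 libraries it passed in both knockouts, and with the block in 6 it passed in p38α/γ KO and not in p38α KO muscle.

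The 3 ATP-Mg carriers together had the lowest level in p38α KO muscle, and all libraries of both knockouts lay below all controls. Of the 3, only Slc25a25 had a lower mean in the knockouts than in control muscle. Their summed signal per kb was 9.47, 8.42 and 7.35 in p38α KO libraries, 12.6, 10.8 and 12.4 in p38α/γ KO libraries and 12.7, 14.2 and 20.3 in control libraries. Slc25a25 made up 19.7 to 24.7% of that sum in p38α KO, 27.8 to 46.2% in p38α/γ KO and 61.6 to 73.6% in control libraries. Slc25a23 held the largest share of the sum in all p38α KO libraries, and Slc25a25 did so in all control libraries. These shares follow from the values above and were not tested separately. They depend on the merged exon lengths, 7862 bases for Slc25a25, 5294 for Slc25a23 and 3431 for Slc25a24.

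**Figure D4:**
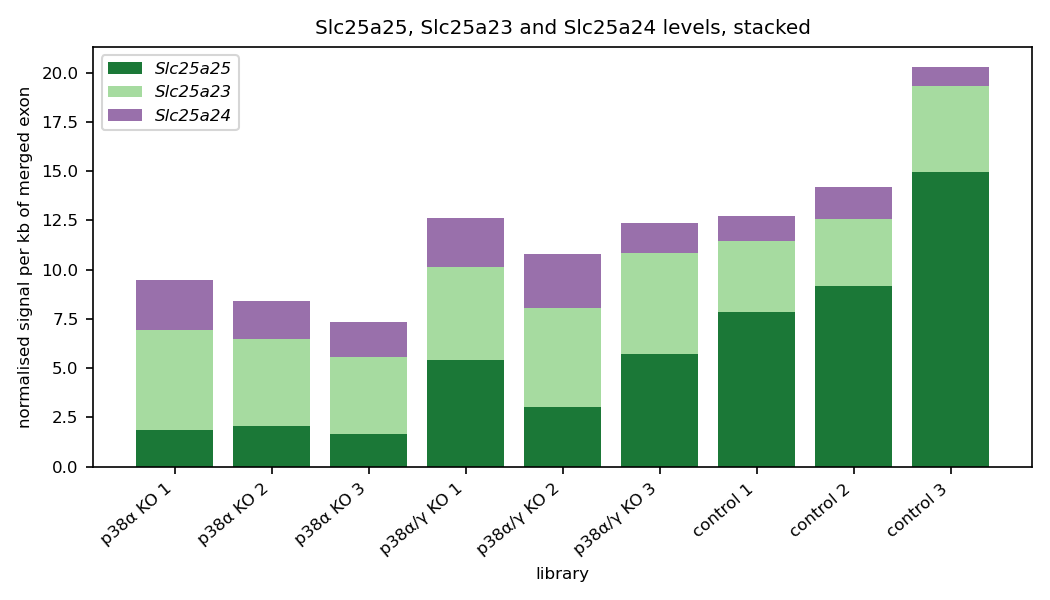
Signal per kb of merged exon of the ATP-Mg/phosphate carriers Slc25a25, Slc25a23 and Slc25a24, stacked for each of the 9 libraries. The green Slc25a25 segment is 19.7 to 24.7% of the bar in p38α KO libraries and 61.6 to 73.6% in control libraries.

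The adenine nucleotide translocases exchange matrix ATP for cytosolic ADP. Slc25a5, the form of the translocase found in many tissues, had a normalised signal of 54.4, 44.9 and 41.0 in p38α KO libraries, 42.3, 46.2 and 44.3 in p38α/γ KO libraries and 31.0, 33.6 and 34.3 in control libraries. Every knockout library lay above every control library. The log2 difference was 0.48 (SE 0.11, limma adjusted p = 0.0168) in p38α KO muscle and 0.41 (SE 0.11, limma adjusted p = 0.0239) in p38α/γ KO muscle. Both calls were lost when any 1 control library was left out, with adjusted p of 0.0508 to 0.0684 in p38α KO and 0.0591 to 0.089 in p38α/γ KO muscle, and the p38α/γ KO call was also lost without its library 2 (0.0921) or 3 (0.075). With the block, adjusted p in p38α/γ KO muscle was 0.0511 in 9 libraries and 0.0033 in 6, and in p38α KO muscle it was 0.0419 in 9 and 0.11 in 6, where that call was lost. Slc25a5 has many processed copies in the mouse genome, so its count depends on how shared reads were assigned.

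Slc25a4 had a normalised signal of 3989, 3790 and 3692 in p38α KO libraries, 3802, 3775 and 4201 in p38α/γ KO libraries and 3960, 3494 and 3692 in control libraries. The 3 groups overlapped, with log2 differences from control of 0.04 (95% interval -0.20 to 0.29) in p38α KO and 0.08 (-0.16 to 0.32) in p38α/γ KO muscle. The ratio of Slc25a4 to Slc25a5 per kb was 51.3 to 63.1 in p38α KO, 57.2 to 66.4 in p38α/γ KO and 72.7 to 89.2 in control libraries. Slc25a3, which brings phosphate into the matrix, had a normalised signal of 1139, 955 and 890 in p38α KO, 983, 1011 and 1140 in p38α/γ KO and 963, 819 and 892 in control libraries. Its p38α/γ KO libraries lay just above the controls, and its log2 differences of 0.15 (SE 0.12) and 0.23 (SE 0.12) did not pass (limma adjusted p = 0.387 and 0.17). With quantile scaling or array weights Slc25a3 passed in p38α/γ KO muscle.

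The di- and tricarboxylate carriers and the carnitine carrier were not called by limma in either knockout. Of all tested genes, 17.8% were called in p38α KO and 25.6% in p38α/γ KO muscle. Only 1 of these 4, Slc25a10 in p38α/γ KO muscle, had an unadjusted p below 0.05, beside 41% of all genes. Slc25a11, which works with aralar in the malate-aspartate shuttle, had a normalised signal of 286, 247 and 221 in p38α KO, 226, 237 and 256 in p38α/γ KO and 239, 193 and 216 in control libraries. Its groups overlapped, with log2 differences of 0.22 (SE 0.12, limma adjusted p = 0.215) and 0.15 (SE 0.12, limma adjusted p = 0.338). Exons of Slc25a11 overlap those of Rnf167 on the opposite strand over 189 bases. The citrate carrier Slc25a1 and the dicarboxylate carrier Slc25a10 had log2 differences of 0.09 and 0.30 in p38α KO and of 0.34 and 0.44 in p38α/γ KO muscle (limma adjusted p of 0.0969 or more). Slc25a10 passed in p38α/γ KO muscle with the block in 6 libraries and not in 9. The carnitine-acylcarnitine carrier Slc25a20, which brings fatty acids into the matrix, had log2 differences of 0.03 and 0.10.

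Of the 7 amino acid carriers, limma called none in either knockout, beside 17.8% of all tested genes in p38α KO and 25.6% in p38α/γ KO muscle. At an unadjusted p below 0.05 there were 2 of 7 in p38α/γ KO muscle, Slc25a12 and Slc25a22, beside 41% of all genes. None reached it in p38α KO muscle, beside 34%. Slc25a12, which exports aspartate in exchange for glutamate, had a normalised signal of 271, 352 and 369.5 in p38α KO, 321, 269 and 310 in p38α/γ KO and 413, 355 and 377 in control libraries. The p38α/γ KO libraries lay below all controls, with a log2 difference of -0.35 (SE 0.13, limma adjusted p = 0.0728; with the block, 0.113 in 9 libraries and 0.00547 in 6), while the p38α KO libraries overlapped with the controls at -0.21 (SE 0.13, adjusted p = 0.265). Its relative citrin, Slc25a13, was near the lowest level of the members at 0.353 per kb in control muscle. The mean normalised signal of Slc25a13 was 1.20 in p38α KO, 0.845 in p38α/γ KO and 1.34 in control muscle. Its log2 differences, of value + 1, were -0.11 and -0.34 (limma adjusted p = 0.709 and 0.175). With quantile scaling Slc25a13 passed in p38α/γ KO muscle. The glutamate carrier Slc25a22 had log2 differences of 0.23 and 0.45 in p38α KO and p38α/γ KO muscle, and the branched-chain amino acid carrier Slc25a44 had -0.18 and -0.30. Both passed in p38α/γ KO muscle with the block in 6 libraries and not in 9. The ornithine carrier Slc25a15, the basic amino acid carrier Slc25a29 and the glycine carrier Slc25a38 lay between -0.08 and 0.23 in both comparisons.

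Of the carriers of cofactors and other nucleotides, 1 of 9 was called by limma, lower in p38α/γ KO muscle, beside 14.4% of all tested genes. None was called in p38α KO muscle, beside 17.8% of all genes. At an unadjusted p below 0.05 there were 4 of 9 in p38α KO muscle, beside 34% of all genes. In p38α/γ KO muscle there was 1 of 9, beside 41%. Slc25a16, linked to coenzyme A, had a normalised signal of 19.4, 27.1 and 26.8 in p38α KO, 26.0, 20.8 and 19.8 in p38α/γ KO and 33.4, 28.8 and 31.2 in control libraries. All knockout libraries lay below all controls, with log2 differences of -0.35 (SE 0.15, limma adjusted p = 0.124) in p38α KO and -0.48 (SE 0.15, limma adjusted p = 0.0404) in p38α/γ KO muscle. The p38α/γ KO call was lost in 8 of 23 alternatives: without any 1 control library, p38α KO library 2 or p38α/γ KO library 2 or 3 (adjusted p of 0.05001 to 0.137), with quantile scaling (0.0598) and with the block in 9 libraries (0.0779). The coenzyme A carrier Slc25a42, the folate and FAD carrier Slc25a32 and Slc25a51, an NAD carrier in human cells, had log2 differences of -0.29, -0.27 and -0.26 in p38α KO muscle, where none of the 3 overlapped with the controls (limma adjusted p = 0.0813, 0.0697 and 0.0714). In p38α/γ KO muscle they had -0.09, 0.02 and -0.18, and only Slc25a51 of them lay below all controls there. Of all tested genes, 21.1% lay below all controls in p38α KO and 28.6% in p38α/γ KO muscle.

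Further members of this set were not called by limma in either knockout. The peroxisomal carrier Slc25a17, the S-adenosylmethionine carrier Slc25a26 and the pyrimidine nucleotide carriers Slc25a33 and Slc25a36 had log2 differences from control of -0.18 to 0.13 over both knockouts. Of these, Slc25a26 had the smallest SE, 0.09, with differences of 0.00 in p38α KO and -0.02 in p38α/γ KO muscle. Slc25a33 had the widest 95% interval, which ran from -0.50 to 0.15 in p38α KO muscle.

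Slc25a37 and Slc25a28 are the mitoferrins, which bring iron into mitochondria for haem and iron-sulfur cluster synthesis. Slc25a37 had a normalised signal of 19.8, 21.5 and 19.7 in p38α KO, 25.6, 22.9 and 21.9 in p38α/γ KO and 18.4, 18.9 and 18.6 in control libraries. The groups did not overlap, with p38α/γ KO libraries highest and controls lowest. The log2 difference was 0.12 (SE 0.09, limma adjusted p = 0.372) in p38α KO and 0.32 (SE 0.09, limma adjusted p = 0.0302) in p38α/γ KO muscle. The p38α/γ KO call was lost in 7 of 23 alternatives, namely without any 1 control or p38α/γ KO library (adjusted p of 0.0577 to 0.0962) and with the block in 9 libraries (0.0588). Exons of Slc25a37 overlap those of Gm27223 over 92 bases and of Gm31748 over 381 bases, both on the opposite strand, of 6021 bases. Slc25a28 had log2 differences of -0.14 and 0.04.

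The glutathione carriers Slc25a39 and Slc25a40 had log2 differences of 0.05 and -0.30 in p38α KO and of -0.10 and -0.39 in p38α/γ KO muscle. Slc25a40 lay below all controls in both knockouts and did not pass (limma adjusted p = 0.154 and 0.061). With quantile scaling, and without the trend, it passed in p38α/γ KO muscle. Slc25a46, which acts at the outer membrane in mitochondrial dynamics, had -0.14 and -0.27. With the block in 6 libraries, and not in 9, Slc25a40 and Slc25a46 passed in p38α/γ KO muscle, as did Slc25a30 and Slc25a35. The relatives of the uncoupling proteins, Slc25a14, Slc25a27 and Slc25a30, had log2 differences of 0.09 to 0.19 in p38α KO and of -0.07 to 0.51 in p38α/γ KO muscle. The less characterised members Slc25a34, Slc25a35, Slc25a45, Slc25a47 and Slc25a53 ranged over -0.36 to 0.16 and -0.18 to 0.37. Slc25a47 and Slc25a29 are the only members within 100000 bases of each other, lying head to head on chromosome 12 with 162 bases between them, and had log2 differences of -0.36 and 0.04 in p38α KO muscle.

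**Figure D5:**
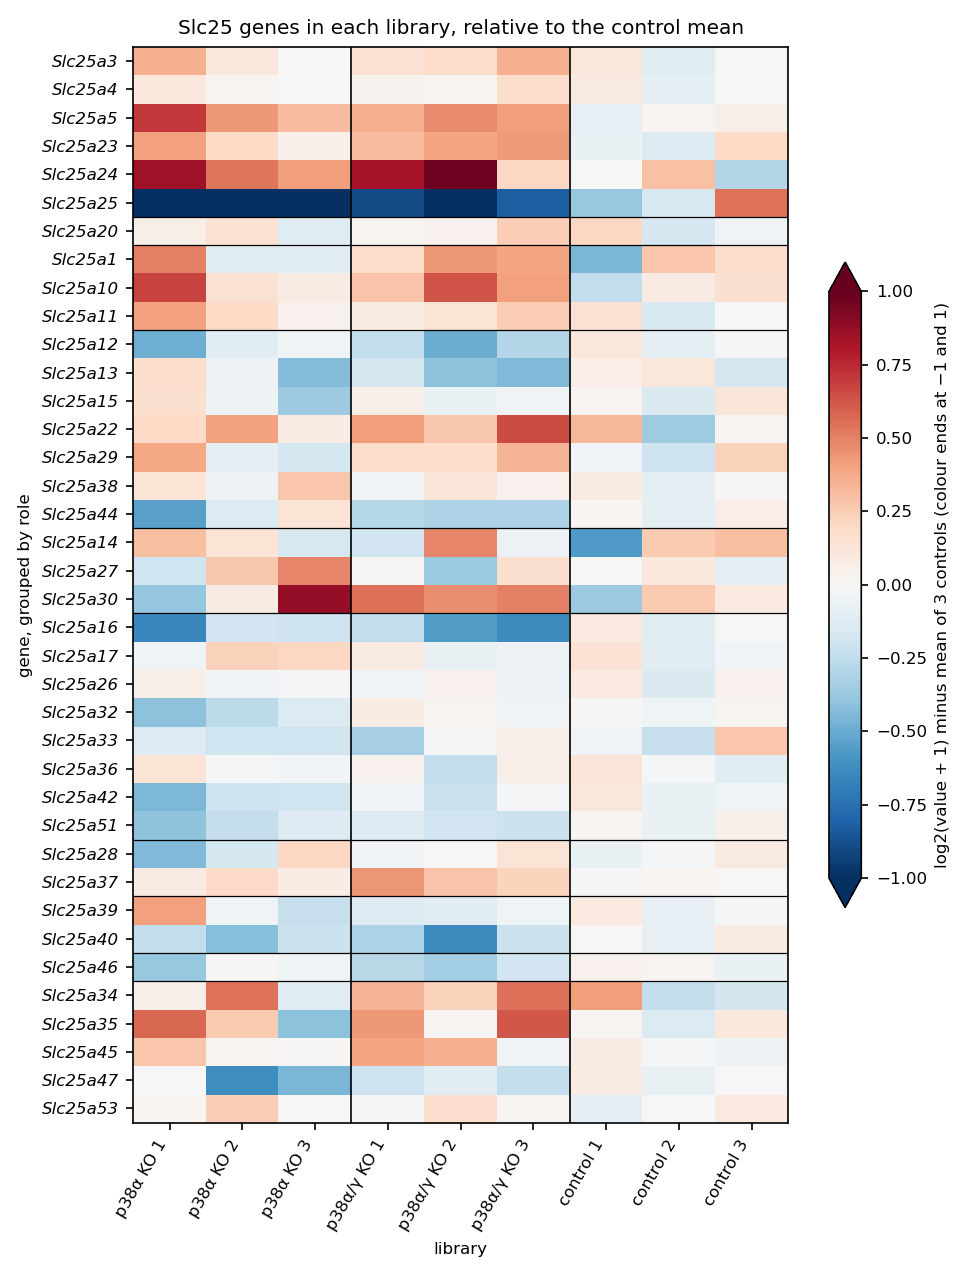
Each library's log2(value + 1) minus the mean of the 3 control libraries (colour, ending at -1 and 1) for 38 Slc25 genes grouped by role, with libraries of p38α KO, p38α/γ KO and control from left to right. Slc25a25 is the only gene beyond the end of the scale in all 3 p38α KO libraries, and many genes differ between p38α KO libraries 1 and 3.

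The p38α KO libraries differed among themselves more than the others. The median coefficient of variation over the 39 members was 14.8% in p38α KO, 8.23% in p38α/γ KO and 8.45% in control muscle. In p38α KO muscle, library 1 was the highest of its group in 20 members and library 3 the lowest in 22. Such a skew was not particular to this group. Control library 1 was highest in 18 members and control library 2 lowest in 24. In p38α/γ KO muscle, library 3 was highest in 18 and library 2 lowest in 16. The widest member was Slc25a30, with a normalised signal of 6.24, 9.04 and 16.4 in p38α KO libraries. Without p38α KO library 1, the called members against control were Slc25a25, Slc25a5 and Slc25a47 in p38α KO muscle.

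Family genes under other symbols are not among the members counted above, and some of them differed. Ucp2 averaged 53.2 ± 8.37 in p38α KO, 170 ± 56.0 in p38α/γ KO and 22.5 ± 3.75 in control muscle (SD, n = 3 each), and was called in all 3 comparisons (limma adjusted p = 0.00883 and 0.000219 against control, and 0.0133 between the knockouts). Ucp3 averaged 139 ± 48.5 in p38α KO, 185 ± 19.6 in p38α/γ KO and 271 ± 21.1 in control muscle (SD, n = 3 each), and its fall was called in p38α KO muscle (adjusted p = 0.0179) and missed the threshold in p38α/γ KO muscle (adjusted p = 0.105). Mtch1, a family gene of the outer membrane, rose in p38α/γ KO muscle by a log2 difference of 0.56 (adjusted p = 0.0266), and Mtch2 had differences of 0.00 in both.

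Genes that work beside the carriers were taken from 10 lists with 103 tested genes. By limma 7 of them (6.8%) were called in p38α KO and 28 (27.2%) in p38α/γ KO muscle, against 17.8% and 25.6% of all tested genes. In each list the genes that rose stand beside 7.32% and 11.2% of all tested genes called higher. Those that fell stand beside 10.4% and 14.4% called lower. Of 15 import genes, Timm13, a chaperone of the intermembrane space, rose in both knockouts (log2 difference 0.53 and 0.50), while Tomm7 rose and the carrier receptor Tomm70a fell (-0.45) in p38α/γ KO muscle. Of 16 ATP synthase genes, limma called 0 in p38α KO muscle (8 at an unadjusted p below 0.05, beside 34% of all genes), and 7 rose in p38α/γ KO muscle (beside 11.2% of all genes called higher), among them Atp5l (0.56), Atp5g2 (0.42) and Atp5k (0.62). The median log2 difference of these 16 genes was 0.27 in p38α KO and 0.40 in p38α/γ KO muscle. Of 21 other mitochondrial transport genes, 2 fell in p38α KO muscle, and 5 rose and 3 fell in p38α/γ KO muscle. The share that fell was close to that of all genes in both knockouts. Micu3, a regulator of the calcium uniporter, fell in both (-0.76 and -0.73), and Slc8b1, the mitochondrial sodium/calcium exchanger, rose in p38α/γ KO muscle (0.75). Of 4 enzymes of the malate-aspartate shuttle, Got1 rose in p38α KO and Got2 in p38α/γ KO muscle.

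Of 12 regulators of mitochondrial genes, the coactivator Ppargc1a rose in both knockouts (log2 difference 0.68 and 0.53), and in p38α/γ KO muscle 2 rose and 2 fell, the transcription factors Tfb2m (-0.52) and Gabpa (-0.70). Of 10 genes of iron-sulfur and haem synthesis, Glrx5 rose (0.75) and Fech, which inserts iron into haem, fell (-0.52) in p38α/γ KO muscle. Shmt2 of 5 one-carbon genes and Gpx1 of 8 glutathione genes rose in both knockouts, and Dld of 7 genes of branched-chain amino acid breakdown fell in p38α/γ KO muscle. None of the 5 carnitine shuttle genes was called by limma in either knockout. In p38α KO muscle 1 had an unadjusted p below 0.05, beside 34% of all genes. Between the knockouts limma called 0 of the 103 genes of these 10 lists, and 8 (7.77%) had an unadjusted p below 0.05, against 0.442% and 12% of all genes.

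Macrophage markers and some markers of other cells moved with genotype. The counts called higher stand beside 7.32% of all tested genes in p38α KO and 11.2% in p38α/γ KO muscle. Those called lower stand beside 10.4% and 14.4%. Of 10 macrophage markers, 8 rose in p38α KO and 10 in p38α/γ KO muscle, with summed signals of 224 to 511 in p38α KO, 300 to 486 in p38α/γ KO and 116 to 153 in control libraries. Of 6 fibro-adipogenic markers, 1 rose in p38α KO and 4 in p38α/γ KO muscle, with summed signals of 803 to 1373 in p38α KO, 1106 to 1434 in p38α/γ KO and 724 to 939.6 in control libraries. Of 7 adipocyte markers 1 fell in p38α KO and of 5 endothelial markers 1 fell in p38α/γ KO muscle. Of 8 slow fibre markers limma called none (0 at an unadjusted p below 0.05, beside 34% and 41% of all genes). No marker was without reads in any library, and their part in the carrier results was not tested.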

How the data were processed

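Gastrocnemius RNA of 9 libraries (3 groups of 3) was analysed from 1 deposited table. It holds 1 signal value per gene and library, which the authors name normalised counts, and how they scaled it is not given in the sources used here. Per the submitters' processing notes, the genome was GRCm38 and the tools were RSEM 1.3.1, CASAVA 1.8, limma and cutadapt. All signal values had the form of a whole number plus a constant, times a step per library, within 0.001 reads, which gave the inferred depths. They were not tested as counts.

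The test was limma 3.58.1 (R 4.3.3) on log2(value + 1), in 1 fit of all 9 libraries with an empirical Bayes trend, and adjusted over all tested genes. Adjusted p-values are limma's, and folds are those of value + 1. GENCODE M21 gave coordinates and merged exon lengths, and promoters came from RefSeq. The code was tested on simulated data. Figures used matplotlib 3.10.9 in Python 3.11.15.

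The members and lists were chosen with earlier results of these data known. Counts cover all 39 members; 1 member and 1 gene of a list are not reported here by name or value, and the figures show 38 members. Values in all libraries are given for the called members and the 4 with the highest control level per kb. Other genes come from fixed lists, with up to 3 called genes named per list.

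Same-numbered libraries of the p38α/γ KO and control groups deviated together across genes (correlations 0.111, 0.124 and 0.148), so the calls or p-values with the block stand beside the members whose call it changes. The labels do not state a pairing. The correlations were -0.0858, -0.0866 and 0.0951 for p38α KO against control, and -0.331, -0.228 and 0.0885 between the knockouts. Alternatives changed the filter, pseudocount, scaling, spread estimate, libraries, block and threshold, and left out each library in turn.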

Additional observations from a re-analysis of the deposited data

How the results depend on the processing

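For p38α KO against control, the count of called members was 2; it was 9 with array weights, 1 with the replicate block in 6 libraries, 1 at a threshold of 0.01 and 6 at 0.1, and from 1 (without any 1 control) to 4 (without p38α KO library 3) with a library left out. For p38α/γ KO against control, the count was 5; it was 15 with array weights, 13 in a fit of only the 6 libraries compared, 14 with the replicate block in those 6 and 2 with the block in all 9, 0 at a threshold of 0.01 and 11 at 0.1, and from 0 (without p38α/γ KO library 2) to 11 (without p38α KO library 1) with a library left out, including 1 without any 1 control, 3 without p38α KO library 2 or p38α/γ KO library 1 and 2 without p38α/γ KO library 3. Between the knockouts the count was 0; it was 5 with array weights and from 0 to 1 with a library left out, 1 being Slc25a25 without p38α KO library 1 or p38α/γ KO library 2. Apart from what the fewer libraries and the threshold themselves bring, the cause was not tested.

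With 1 library left out, uncalled log2 differences near zero changed sign. In p38α KO against control, that of Slc25a4 ranged from -0.00064 to 0.090. Between the knockouts, that of Slc25a4 ranged from -0.068 to 0.013, Slc25a3 from -0.18 to 0.00075, Slc25a11 from -0.033 to 0.15 and Slc25a5 from -0.043 to 0.16. Filters, pseudocounts, TMM-type, median-of-ratios and quantile scaling, and the robust or trend-free spread kept the 3 counts within 1.5 times. For p38α/γ KO against control, the members behind the count still changed. Quantile scaling called 7, which left out Slc25a16 and added Slc25a3, Slc25a13 and Slc25a40. Without the trend, Slc25a40 took the place of Slc25a23. A pseudocount of 0.5 or the robust spread added Slc25a24. Fits without a pseudocount, with the block in 6 libraries and with gene-by-gene array weights were added after seeing the data. The planned default array weights were not run because their estimate did not converge. Depth was inferred, so no counting intervals are given, and 3 libraries per group limit what can be called.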
